A study of Homo sapiens with 12 samples.

Results

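The phosphatases that restrain signalling in leukocytes, other than SHP2, were followed as 10 genes: PTPN1, PTPN2, PTPN6, PTPN7, PTPN12, PTPN18, PTPN22, PTPRC, INPP5D and PTPRCAP, the last of which encodes a partner of CD45 and not an enzyme. Members were found by gene symbol, and every probe set whose annotation gave a member's symbol alone was kept. A probe set is a group of short probes against one part of a transcript. This gave 33 of the 54613 probe sets tested, for 10 of the 19775 genes that have such a probe set. Each gene is described first by its brightest probe set, the one with the highest mean over all arrays.

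OCI-Ly7, an established diffuse large B-cell lymphoma line, was left for 24 hours in vehicle, in ibrutinib at 1 μM (called the low dose) or 10 μM (the high dose), or in PLS-123 at 1 μM. Ibrutinib and PLS-123 are both covalent inhibitors of Btk, a kinase of the B-cell receptor pathway. Each of the 4 groups had 3 samples, named A to C, on 12 Affymetrix U133 Plus 2.0 arrays. All samples were of this 1 line in DMEM with serum, and no label states that A, B and C came from separate cultures, so p values measure only the spread between these samples, which may be technical.

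B-cell receptor signals depend on tyrosine phosphorylation by Lyn, Syk and Btk, and phosphatases remove those marks. SHP-1, the product of PTPN6, and SHIP1, the product of INPP5D, are recruited by inhibitory receptors such as CD22, whereas CD45, the product of PTPRC, removes the inhibitory phosphate of Src family kinases and so can also favour signalling. SHIP1 acts on a membrane lipid that draws Btk and Akt to the receptor, not on protein.

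All values below are log2 intensities, and differences are log2 differences with their standard error. A difference was called at an adjusted p under 0.05 in limma, adjusted by the Benjamini-Hochberg method over all 54613 probe sets of a comparison. In RNA from whole cultures, fewer cells of a kind and less RNA per cell cannot be told apart. The median intensity per array lay between 14.2 and 14.8. The 5 B-cell markers and 4 germinal centre markers measured were all brighter than the median of all probe sets, a log2 intensity of 3.87 (probe sets below it are called dim here). Of the markers of other cells, 2 of 8 for T and NK cells, 2 of 5 for myeloid cells and 2 of 8 for stromal and epithelial cells were not dim, and CD3D, CD14, LYZ and EPCAM were dim. The summed intensity of the T and NK markers was 79.5 to 90.3 with vehicle and 85.0 to 99.8 with PLS-123, and that of the myeloid markers was 53.9 to 57.7 and 54.2 to 55.8. For the stromal and epithelial markers it was 160.4 to 172.3 with vehicle and 169.1 to 211.1 with PLS-123. For the B-cell markers, which include CD22, it was 11672 to 12121 with vehicle, 9407 to 9568 with high-dose ibrutinib and 8774 to 9416 with PLS-123. The germinal centre markers summed to 4857 to 5088, 3354 to 3520 and 3636 to 3700 in the same groups. Single markers did not all follow these sums. In the same groups MME, a germinal centre marker, averaged a log2 intensity of 9.13, 10.58 and 10.82. CD79B, a B-cell marker, averaged 11.18, 11.46 and 11.49. The other markers of both lists averaged lower than vehicle in both treated groups. The part of these markers in the results was not tested.

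Both measures of RNA quality differed between the groups and are given with no test. The log2 difference between the 3′ and 5′ probe sets of ACTB, which widens as RNA degrades or is copied less fully, averaged 2.64 ± 0.04 (SD, n = 3) with vehicle, 2.67 ± 0.18 with low-dose ibrutinib, 2.74 ± 0.08 with high-dose ibrutinib and 2.93 ± 0.20 with PLS-123. It was widest in PLS-123 sample C, at 3.17, and wider in sample A of low-dose ibrutinib, at 2.87, than in samples B and C of that group, at 2.55 and 2.58. The same difference for GAPDH averaged 0.313 ± 0.040 with vehicle, 0.274 ± 0.033 with low-dose ibrutinib, 0.390 ± 0.0081 with high-dose ibrutinib and 0.449 ± 0.015 with PLS-123, and every array of the last pair of groups lay above every vehicle array. The part of GAPDH in the results was not tested. The values with the ACTB difference as a covariate are given beside the calls they change.

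The upstream sequences of 4 members whose RNA moved are shown because they are the stretches of DNA nearest to where transcription of these genes starts. They are the 250 bases before the start in RefSeq (GRCh38.p14), printed 5′ to 3′ on the gene's strand, which is given after the coordinates. PTPN6 has 2 starts in that table. Capitals mark AGGAAGT, a core of the sites that ETS factors bind, or its reverse complement ACTTCCT. This motif and the GC-rich box GGGCGG were searched on both strands and were chosen after the sequences and the values had been seen.
PTPN6, upstream start, chr12:6946327-6946576 (+): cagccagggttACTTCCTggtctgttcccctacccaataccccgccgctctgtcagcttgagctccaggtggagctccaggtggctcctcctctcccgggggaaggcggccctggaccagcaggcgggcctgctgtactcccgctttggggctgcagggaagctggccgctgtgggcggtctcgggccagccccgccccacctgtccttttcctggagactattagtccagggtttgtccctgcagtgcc
PTPN6, downstream start, chr12:6951106-6951355 (+): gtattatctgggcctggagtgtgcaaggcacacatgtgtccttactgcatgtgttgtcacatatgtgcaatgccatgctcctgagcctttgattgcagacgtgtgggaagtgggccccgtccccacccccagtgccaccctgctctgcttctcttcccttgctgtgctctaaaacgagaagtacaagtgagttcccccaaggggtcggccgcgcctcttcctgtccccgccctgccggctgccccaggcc
PTPN22, chr1:113871713-113871962 (-): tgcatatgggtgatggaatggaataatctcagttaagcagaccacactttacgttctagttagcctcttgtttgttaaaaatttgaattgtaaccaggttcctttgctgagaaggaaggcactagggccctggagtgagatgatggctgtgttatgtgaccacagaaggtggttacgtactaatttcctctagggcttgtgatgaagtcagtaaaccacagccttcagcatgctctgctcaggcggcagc
PTPRC, chr1:198638790-198639039 (+): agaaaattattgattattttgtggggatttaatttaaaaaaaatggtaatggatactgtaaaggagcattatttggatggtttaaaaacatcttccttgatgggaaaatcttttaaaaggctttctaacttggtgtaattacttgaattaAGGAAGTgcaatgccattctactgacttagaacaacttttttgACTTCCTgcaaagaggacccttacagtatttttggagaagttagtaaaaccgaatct
INPP5D, chr2:233060092-233060341 (+): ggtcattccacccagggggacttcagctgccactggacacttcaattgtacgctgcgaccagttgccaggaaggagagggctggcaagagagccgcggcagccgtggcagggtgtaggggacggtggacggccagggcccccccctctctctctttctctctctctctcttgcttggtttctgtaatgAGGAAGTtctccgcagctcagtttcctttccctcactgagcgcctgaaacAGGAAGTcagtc

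AGGAAGT lay in 3 of the 12 upstream sequences found for 9 members, and in 7.0% of the 35116 sequences of the same length in the table. The matches began 239 bases before the upstream PTPN6 start, 100 and 57 bases before the PTPRC start, and 62 and 12 bases before the INPP5D start. GGGCGG lay in 5 of the 12 sequences, at PTPN1, PTPN7, PTPN18 and both PTPN6 starts, against 42.6% of all. GC content was 31.2% at PTPRC, 45.6% at PTPN22, 59.2% at INPP5D and 66.4% and 59.6% at the PTPN6 starts, with a median of 58.0% over all sequences. PTPRC and INPP5D share the motif, and in the arrays the brightest probe sets of these genes moved in opposite directions. A match is a description of letters and not a binding site.

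With PLS-123 against vehicle, 5 of the 10 genes fell (PTPN6, PTPRCAP, PTPN22, PTPN18 and PTPRC), 2 rose (INPP5D and PTPN1), and 3 did not pass the test. Over all genes 12.8% were called lower and 7.54% higher in this comparison. None of the 10 genes had a dim brightest probe set, whereas the 19775 genes behind these and the following shares include dim ones. The shares among genes that are not dim were not counted. With high-dose ibrutinib 3 fell (PTPN22, PTPRCAP and PTPRC), 3 rose (INPP5D, PTPN2 and PTPN1) and 4 did not pass, against 5.82% of all genes lower and 6.71% higher. With low-dose ibrutinib 0 of the 10 were called by limma or by the methods' t-test (which uses only the arrays of the groups compared), where 0% of all genes were called, and 1 of the 10 had an unadjusted p under 0.05 in limma. The median difference of the 10 was -0.27 with PLS-123 and -0.05 with high-dose ibrutinib, and over all genes it was -0.04 and -0.02. At its brightest probe set no member changed by as much as 1.5-fold. The 3 comparisons share the vehicle arrays.

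**Figure D1:**
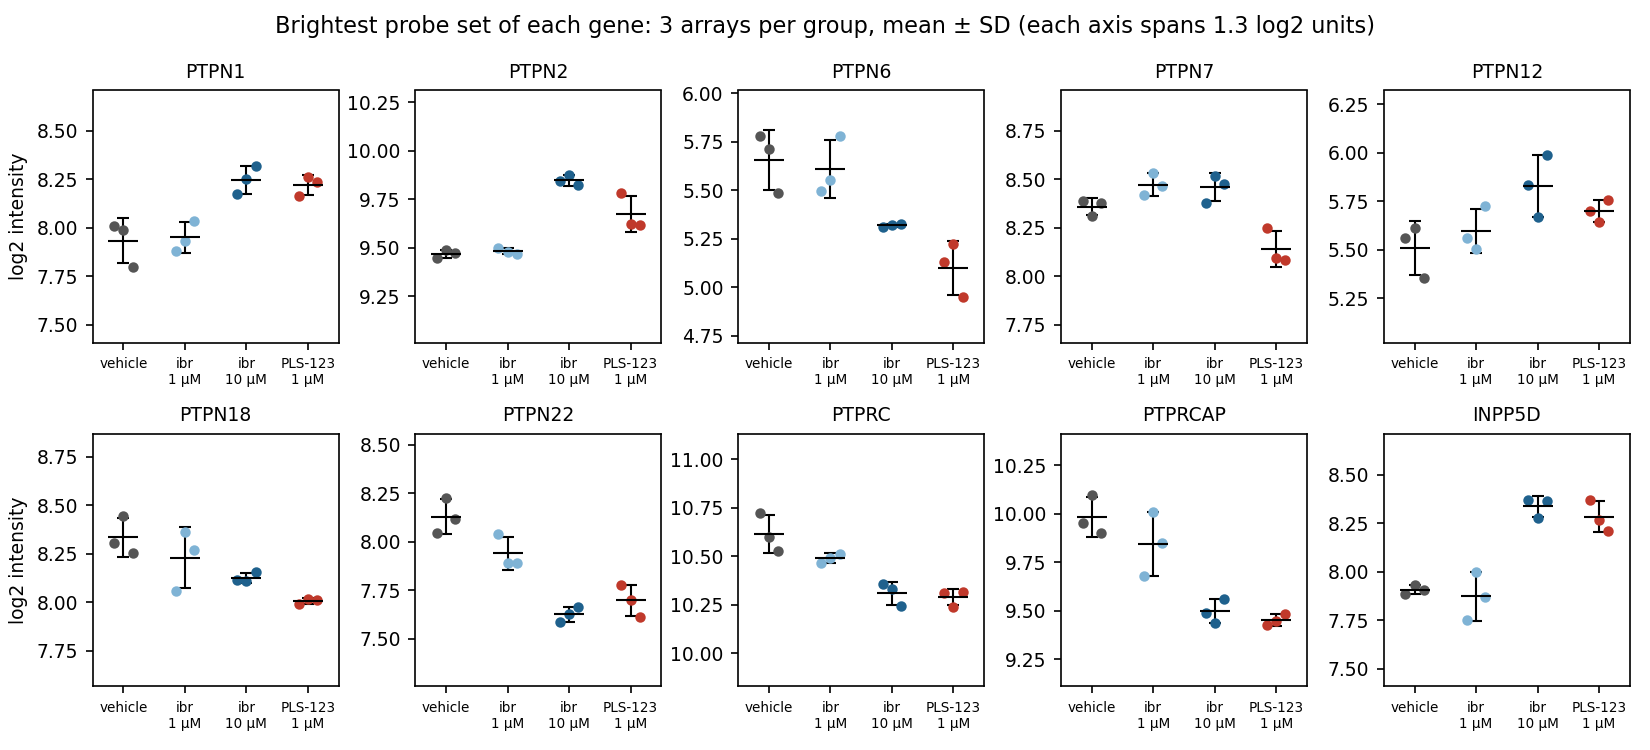
Log2 intensity of the brightest probe set of each of the 10 genes on the 12 arrays, by treatment; points are arrays and bars are the mean ± SD of 3 arrays. Each panel spans the same 1.3 log2 units but has its own position, so shifts can be compared between panels and levels cannot. The 3 PLS-123 arrays lie below the 3 vehicle arrays for PTPN6, PTPN7, PTPN18, PTPN22, PTPRC and PTPRCAP and above them for PTPN1, PTPN2, PTPN12 and INPP5D. Of these, PTPN2, PTPN7 and PTPN12 did not pass the test. The share of all genes whose arrays separate in this way was not counted, so nothing particular to the members is read from it.

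**Figure D2:**
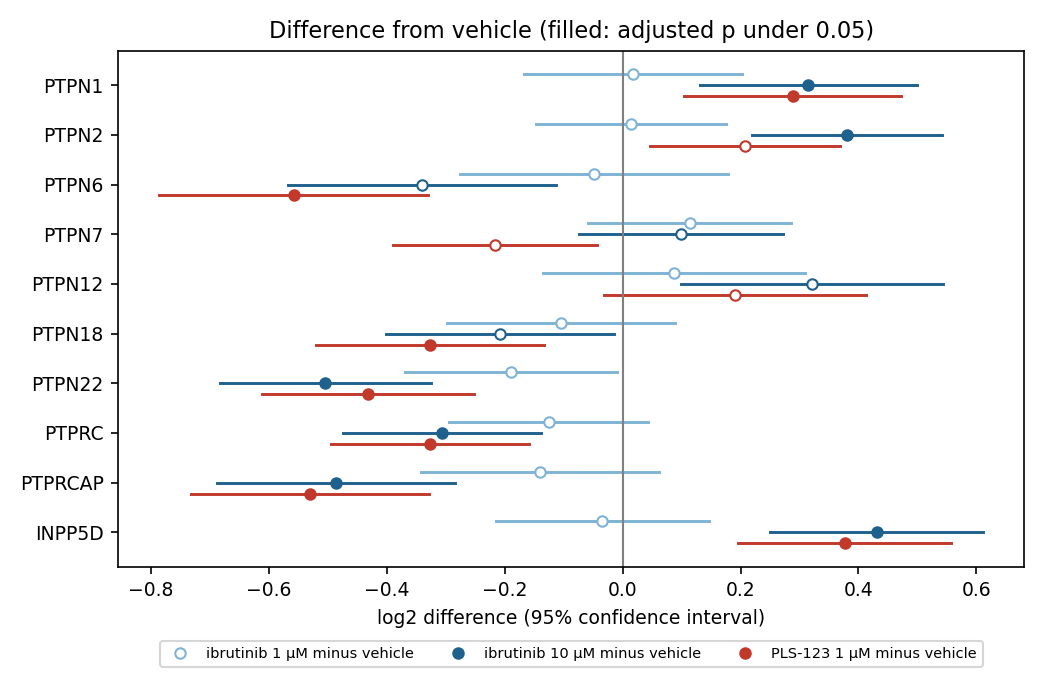
Log2 difference from vehicle of the same probe sets for 1 μM ibrutinib, 10 μM ibrutinib and 1 μM PLS-123, with 95% confidence intervals from limma; filled circles have an adjusted p under 0.05. No circle is filled for 1 μM ibrutinib, and the differences at that dose lie between -0.19 and 0.11.

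PTPN6 had the largest fall with PLS-123 among the 10. SHP-1, its product, is the cytosolic phosphatase that docks on the tyrosine motifs of inhibitory receptors. Its only probe set of its own (206687_s_at) read 5.78, 5.71 and 5.48 with vehicle, 5.50, 5.55 and 5.78 with low-dose ibrutinib, 5.31, 5.32 and 5.32 with high-dose ibrutinib, and 5.13, 5.22 and 4.95 with PLS-123. The vehicle and low-dose ibrutinib arrays overlapped, every high-dose ibrutinib array lay below both, and every PLS-123 array lay below those. The difference from vehicle was -0.56 ± 0.11 with PLS-123, by which intensity fell by 32.1% (adjusted p = 0.00231), and -0.34 ± 0.11 with high-dose ibrutinib (adjusted p = 0.0606). The PLS-123 difference was -0.40 with the ACTB covariate (adjusted p = 0.1). Without vehicle sample C the high-dose ibrutinib difference passed the test (adjusted p = 0.0328). It also passed after quantile normalization (adjusted p = 0.0409) and with dim probe sets left out (adjusted p = 0.027). With a replicate block, centring on control probe sets or the ACTB covariate it did not pass (adjusted p = 0.0864 to 0.12). PTPN6 is in the study's heat map of genes picked on these arrays, so its direction is not independent evidence.

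INPP5D rose with PLS-123 and with high-dose ibrutinib. SHIP1, its product, removes a phosphate from the lipid made by phosphoinositide 3-kinase. Its brightest probe set (203332_s_at) read 7.88, 7.93 and 7.90 with vehicle, 7.75, 8.00 and 7.87 with low-dose ibrutinib, 8.37, 8.28 and 8.36 with high-dose ibrutinib, and 8.37, 8.27 and 8.21 with PLS-123. The arrays of high-dose ibrutinib and PLS-123 overlapped each other and lay above all others. It differed from vehicle by 0.38 ± 0.08 with PLS-123 (adjusted p = 0.00696) and 0.43 ± 0.08 with high-dose ibrutinib (adjusted p = 0.00388). Both calls held with each array left out in turn and with the ACTB difference as a covariate, where the values were 0.49 and 0.47. The other probe sets, 203331_s_at and 1568943_at, differed from vehicle by 0.31 (adjusted p = 0.0477) and 0.35 (adjusted p = 0.0712) with PLS-123. With high-dose ibrutinib neither was called, at 0.20 (adjusted p = 0.273) and 0.31 (adjusted p = 0.16).

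PTPRC and PTPRCAP, which encode CD45 and a small membrane protein bound to it, both fell at their brightest probe sets. The brightest PTPRC probe set (212587_s_at) read 10.72, 10.60 and 10.53 with vehicle, 10.47, 10.49 and 10.51 with low-dose ibrutinib, 10.36, 10.33 and 10.24 with high-dose ibrutinib, and 10.31, 10.24 and 10.32 with PLS-123. The high-dose ibrutinib and PLS-123 arrays overlapped, below the low-dose ibrutinib arrays, which in turn lay just below the lowest vehicle array. The difference from vehicle was -0.33 ± 0.08 with PLS-123 (adjusted p = 0.0106; 0.106 with the ACTB covariate; 0.0528 without vehicle sample A) and -0.31 ± 0.08 with high-dose ibrutinib (adjusted p = 0.0224). The latter missed the threshold without vehicle sample A or B, or without sample B or C of high-dose ibrutinib (adjusted p = 0.0576 to 0.102). With high-dose ibrutinib the next PTPRC probe sets, 212588_at and 207238_s_at, were not called, at -0.004 (adjusted p = 0.994) and -0.23 (adjusted p = 0.102). The mean over all PTPRC probe sets was at -0.008 with PLS-123 (adjusted p = 0.967) and -0.10 with high-dose ibrutinib (adjusted p = 0.584).

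The single PTPRCAP probe set (204960_at) read 9.95, 10.10 and 9.90 with vehicle, 9.68, 10.01 and 9.85 with low-dose ibrutinib, 9.49, 9.44 and 9.56 with high-dose ibrutinib, and 9.42, 9.45 and 9.48 with PLS-123. Its arrays fell into 2 overlapping pairs of groups, vehicle with low-dose ibrutinib above, and high-dose ibrutinib with PLS-123 below. Against vehicle the difference was -0.53 ± 0.09 with PLS-123 (adjusted p = 0.00139; 0.0514 with the ACTB covariate) and -0.49 ± 0.09 with high-dose ibrutinib (adjusted p = 0.00349), and both calls held with each array left out.

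PTPN22, PTPN12 and PTPN18 encode the phosphatases with a proline-rich PEST tail. LYP, the product of PTPN22, works with the kinase Csk against Src family kinases. Its brightest probe set (206060_s_at) read 8.05, 8.23 and 8.11 with vehicle, 8.04, 7.89 and 7.89 with low-dose ibrutinib, 7.58, 7.63 and 7.66 with high-dose ibrutinib, and 7.78, 7.70 and 7.61 with PLS-123. Here too the high-dose ibrutinib and PLS-123 arrays overlapped at the bottom of the range. Against vehicle it was at -0.50 ± 0.08 with high-dose ibrutinib (adjusted p = 0.0011), -0.43 ± 0.08 with PLS-123 (adjusted p = 0.00263; 0.042 with the ACTB covariate) and -0.19 ± 0.08 with low-dose ibrutinib (unadjusted p = 0.0402 and adjusted p = 0.917 in limma). The second brightest PTPN22 probe set was not called with high-dose ibrutinib, at -0.04 (adjusted p = 0.956). A dim one fell there, at -0.47 (adjusted p = 0.0266), and the other dim one was not called, at -0.20 (adjusted p = 0.152). The mean over all PTPN22 probe sets was not called, at -0.30 with high-dose ibrutinib (adjusted p = 0.0531) and -0.11 with PLS-123 (adjusted p = 0.499). At the brightest probe sets PTPN22 was the only one of the 10 with an unadjusted p under 0.05 at the low dose of ibrutinib. The third PTPRC probe set (207238_s_at) was at -0.20 there (unadjusted p = 0.03 and adjusted p = 0.917 in limma).

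The brightest PTPN18 probe set (203555_at) read 8.30, 8.44 and 8.25 with vehicle, 8.06, 8.36 and 8.27 with low-dose ibrutinib, 8.11, 8.11 and 8.15 with high-dose ibrutinib, and 7.99, 8.02 and 8.01 with PLS-123. The PLS-123 arrays lay closely together below all others, and the low-dose ibrutinib arrays spread across most of the range. The difference from vehicle was -0.33 ± 0.09 with PLS-123 (adjusted p = 0.0229; 0.34 with the ACTB covariate) and -0.21 ± 0.09 with high-dose ibrutinib (adjusted p = 0.194). The PLS-123 call was lost without vehicle sample B and without any 1 of the PLS-123 samples (adjusted p = 0.0504 to 0.102).

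PTPN12 (202006_at) read 5.56, 5.61 and 5.35 with vehicle, 5.56, 5.50 and 5.73 with low-dose ibrutinib, 5.83, 5.67 and 5.99 with high-dose ibrutinib, and 5.70, 5.64 and 5.75 with PLS-123. It did not pass the test in any comparison, at 0.32 ± 0.10 with high-dose ibrutinib (adjusted p = 0.0696; 0.0431 without sample B of that group) and 0.19 ± 0.10 with PLS-123 (adjusted p = 0.248).

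PTPN1 and PTPN2 encode closely related phosphatases of JAK kinases and their receptors. The brightest PTPN2 probe set (213136_at) read 9.45, 9.49 and 9.47 with vehicle, 9.50, 9.48 and 9.47 with low-dose ibrutinib, 9.85, 9.88 and 9.82 with high-dose ibrutinib, and 9.78, 9.62 and 9.62 with PLS-123. The vehicle and low-dose ibrutinib arrays all but coincided, the PLS-123 arrays lay above them and the high-dose ibrutinib arrays lay highest. PTPN2 differed from vehicle by 0.38 ± 0.07 with high-dose ibrutinib (adjusted p = 0.00405) and 0.21 ± 0.07 with PLS-123 (adjusted p = 0.077; 0.0119 after a further quantile normalization). The PLS-123 difference of PTPN2 also passed with an intensity trend (adjusted p = 0.0106) and with dim probe sets left out (adjusted p = 0.0206). It did not pass with a replicate block (adjusted p = 0.106) or the ACTB covariate (adjusted p = 0.221). For PTPN1 the brightest probe set (202716_at) read 8.01, 7.99 and 7.80 with vehicle, 7.88, 7.93 and 8.04 with low-dose ibrutinib, 8.17, 8.25 and 8.32 with high-dose ibrutinib, and 8.16, 8.26 and 8.24 with PLS-123. These arrays again formed a lower and a higher pair of overlapping groups, with a difference from vehicle of 0.32 ± 0.09 for high-dose ibrutinib (adjusted p = 0.0313) and 0.29 ± 0.09 for PLS-123 (adjusted p = 0.0336; 0.18 with the ACTB covariate). Both PTPN1 calls were lost without vehicle sample B or C and without sample B or C of the treated group, with an adjusted p of 0.0531 to 0.141 for high-dose ibrutinib and 0.0547 to 0.139 for PLS-123.

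PTPN7 encodes HePTP, a phosphatase of the MAP kinases Erk and p38. Its brightest probe set (204852_s_at) read 8.39, 8.31 and 8.38 with vehicle, 8.42, 8.53 and 8.47 with low-dose ibrutinib, 8.38, 8.52 and 8.48 with high-dose ibrutinib, and 8.25, 8.09 and 8.08 with PLS-123. The PLS-123 arrays lay below all others, and the arrays of both ibrutinib doses overlapped. PTPN7 differed from vehicle by -0.22 ± 0.08 with PLS-123 (adjusted p = 0.0849) and 0.10 ± 0.08 with high-dose ibrutinib (adjusted p = 0.545). The PLS-123 difference passed with an intensity trend (adjusted p = 0.0308) and with dim probe sets left out (adjusted p = 0.0277). It did not pass after quantile normalization (adjusted p = 0.237) or with the ACTB covariate (adjusted p = 0.474). A second PTPN7 probe set (1554860_at), less bright but not dim, differed by -0.07 ± 0.10 with PLS-123 (adjusted p = 0.737). With high-dose ibrutinib it was at -0.19 ± 0.10 (adjusted p = 0.319).

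PLS-123 and ibrutinib at equal doses (1 μM) differed in 4 of the 10 genes. PTPN6 was lower with PLS-123 by a log2 difference of -0.51 ± 0.11 (adjusted p = 0.00543), PTPRCAP by -0.39 ± 0.09 (adjusted p = 0.0135) and PTPN7 by -0.33 ± 0.08 (adjusted p = 0.0145), and INPP5D was higher by 0.41 ± 0.08 (adjusted p = 0.00504). Over all genes 10.1% were lower and 5.78% higher in this comparison, and 9 of the 10 members had an unadjusted p under 0.05. Of the 6 that did not pass, PTPN1 came nearest, at 0.27 with a 95% confidence interval of 0.09 to 0.45 (adjusted p = 0.0556). For PTPN12 the interval ran from -0.12 to 0.32. With the ACTB covariate only INPP5D was called, at 0.51 (adjusted p = 0.008). Without sample B of low-dose ibrutinib, PTPRCAP (adjusted p = 0.0657) and PTPN7 (adjusted p = 0.0598) were not called, and PTPN7 also missed the threshold without PLS-123 sample B or C. PTPN18 passed it without sample A of low-dose ibrutinib (adjusted p = 0.0274). All 3 INPP5D probe sets were higher with PLS-123, by 0.41, 0.40 and 0.43. The second PTPN7 probe set was not called, at -0.15 (adjusted p = 0.43).

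PLS-123 at 1 μM and ibrutinib at 10 μM are different doses, and their values are set side by side. No gene of the 10 passed the test in limma, where 0.142% of all genes were called lower and 0.0708% higher. By the methods' t-test, with its p adjusted over all probe sets, no gene of the 10 passed either. In limma an unadjusted p under 0.05 was found for 2, PTPN7 at -0.32 (95% confidence interval -0.49 to -0.14, adjusted p = 0.111) and PTPN2 at -0.17 (-0.33 to -0.01, adjusted p = 0.292). For PTPN6 the interval was -0.45 to 0.01, and for INPP5D it was -0.24 to 0.13. PTPN7 alone was called when dim probe sets were left out or an intensity trend was fitted. The second PTPN7 probe set had the opposite sign, at 0.13 (adjusted p = 0.598).

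**Figure D3:**
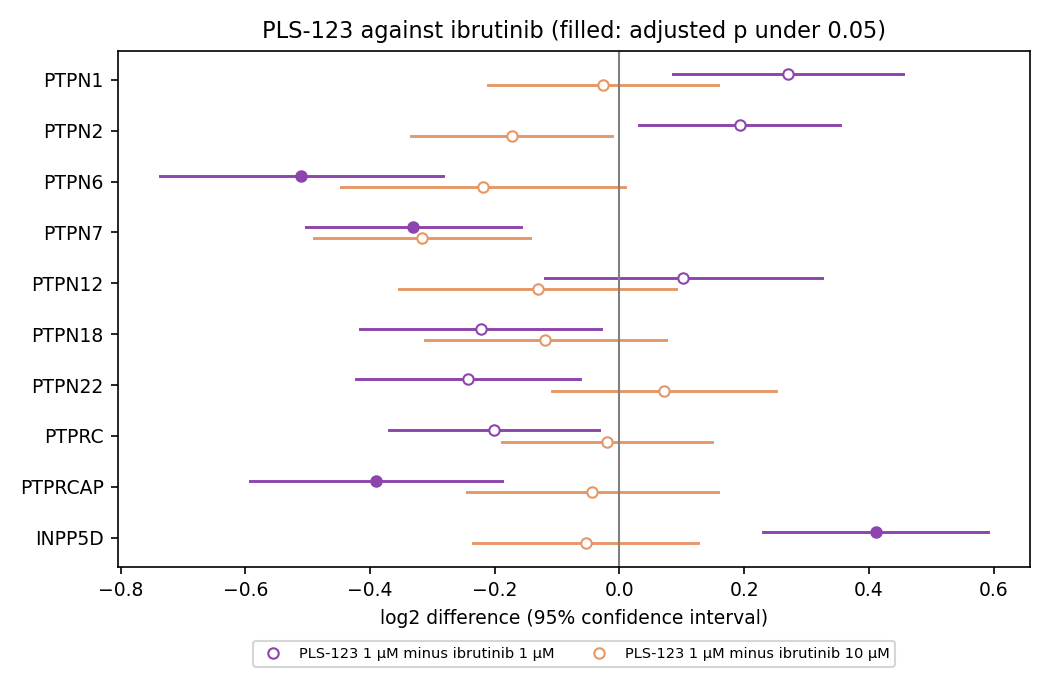
Log2 difference of PLS-123 at 1 μM from ibrutinib at 1 μM (equal doses) and at 10 μM (unequal doses) for the brightest probe set of each gene, with 95% confidence intervals; filled circles have an adjusted p under 0.05. PTPN6, PTPN7, PTPRCAP and INPP5D are filled for the equal doses, and none is filled against 10 μM ibrutinib.

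Probe sets of 1 gene did not always move together. With PLS-123 against vehicle 6 of the 33 probe sets were lower and 3 higher, where 10.4% and 6.36% of all 54613 probe sets were. A second bright PTPRC probe set (212588_at) read 9.32, 9.32 and 9.42 with vehicle, 10.10, 9.26 and 9.44 with low-dose ibrutinib, 9.41, 9.34 and 9.29 with high-dose ibrutinib, and 10.02, 9.58 and 9.93 with PLS-123. It was high in all 3 PLS-123 samples and in sample A of low-dose ibrutinib. Its difference from vehicle with PLS-123 was 0.49 ± 0.17 (adjusted p = 0.0676), opposite in sign to the brightest probe set, while the third (207238_s_at) was at -0.23 ± 0.08 (adjusted p = 0.0768).

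The same arrays stood out for a second PTPN22 probe set (236539_at), which read 5.18, 5.01 and 5.04 with vehicle, 6.23, 4.81 and 5.08 with low-dose ibrutinib, 5.13, 5.25 and 4.72 with high-dose ibrutinib, and 6.02, 5.55 and 6.08 with PLS-123. Its difference with PLS-123 was 0.81 ± 0.28 (adjusted p = 0.0645), whereas a dim probe set (208010_s_at) fell with the brightest, at -0.64 ± 0.12 (adjusted p = 0.00274). Sample A of low-dose ibrutinib and sample A of PLS-123 also had the lowest medians of the 12 arrays, both 14.2, and the ACTB difference was 2.87 and 2.83 in them. PLS-123 sample B, also above vehicle at both probe sets, had the highest median, 14.83, and an ACTB difference of 2.80. PLS-123 sample C, high at both, had the widest ACTB difference, 3.17. Sample C of high-dose ibrutinib, low at both, had an ACTB difference of 2.83. The part of these array properties in the divergent probe sets was not tested. PTPN18 was called at 203555_at, but its second probe set (213521_at) differed from vehicle by 0.01 ± 0.08 with PLS-123. The INPP5D probe sets did not diverge in this way, all being above vehicle with PLS-123. For PTPN2 the second probe set (213137_s_at), also bright, was not called with high-dose ibrutinib, at 0.21 ± 0.07 (adjusted p = 0.0717), and was at -0.0003 ± 0.07 with PLS-123. A less bright probe set (243410_at) rose with high-dose ibrutinib, by 0.53 ± 0.14 (adjusted p = 0.0242), and the mean over all PTPN2 probe sets was at 0.26 (adjusted p = 0.0659).

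**Figure D4:**
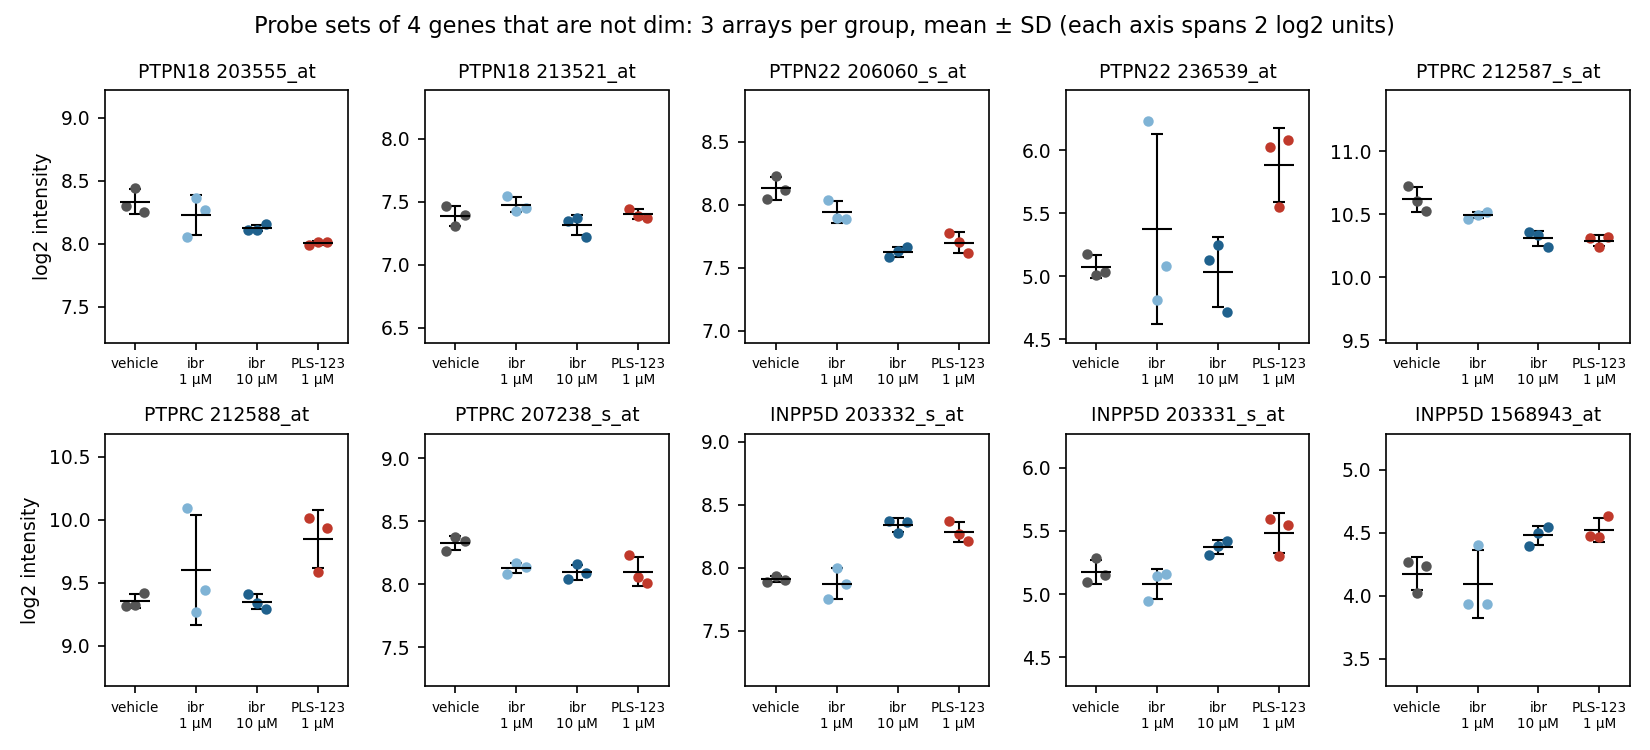
Log2 intensity of the 10 probe sets of PTPN18, PTPN22, PTPRC and INPP5D that are not dim, by treatment; points are arrays A to C from left to right and bars are the mean ± SD of 3 arrays. Panels span the same 2 log2 units. PTPRC 212588_at and PTPN22 236539_at are high in the PLS-123 arrays and in array A of 1 μM ibrutinib, while the brightest probe sets of both genes are low with PLS-123.

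Genes whose response was most like a member's were sought among the 12028 genes with a brightest probe set that was not dim, by the largest of the gaps between the 3 differences from vehicle. For PTPN6 these were TSEN54, ECSIT and VIRMA, with largest gaps of 0.015, 0.015 and 0.0211 on the log2 scale. For PTPRCAP they were MDS2, THAP6 and CALML4, with gaps of 0.0186, 0.0225 and 0.0243. The 3 differences are means over the same 12 arrays and share the vehicle samples.

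Receptors that recruit SHP-1 or SHIP1 were the first of 5 lists of partner and related genes. Of 15 measured, 5 fell and 1 rose with PLS-123 (median difference -0.17), where 12.8% of all genes were lower and 7.54% higher. With high-dose ibrutinib 6 fell and 1 rose, against 5.82% and 6.71% of all genes. CD22, the B-cell lectin receptor that recruits SHP-1, differed by -2.14 with PLS-123 (adjusted p = 1.45e-09), -1.87 with high-dose ibrutinib (adjusted p = 5.9e-09) and -0.18 with low-dose ibrutinib (adjusted p = 0.92). CD72 and SIGLEC10, which carry the same kind of motif, fell by 1.04 and 0.93 with PLS-123, and LAIR1, a collagen receptor, rose by 0.50. CD22 and CD72 are in the study's heat map of genes picked on these arrays and are not independent evidence of direction.

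The list of inhibitory adaptors, which also held CSK and CBLB, gave 3 falls and 1 rise among 13 genes with high-dose ibrutinib. With PLS-123 it gave 4 falls and 1 rise (median -0.15). The shares of all genes were again 5.82% lower and 6.71% higher with high-dose ibrutinib, and 12.8% and 7.54% with PLS-123. PAG1, which anchors Csk, differed by -0.95 (adjusted p = 3.46e-06), DOK3 by -0.76 and LIME1 by -0.77, while CBLB, a ubiquitin ligase that restrains antigen receptors, rose by 1.07 (adjusted p = 1.28e-05). Among 22 measured kinases and STATs that these phosphatases act on, 6 fell and 4 rose with PLS-123 (median -0.07; all genes 12.8% and 7.54%), and 4 fell and 4 rose with high-dose ibrutinib (all genes 5.82% and 6.71%). SYK rose by 0.83 and JAK1 by 0.91, and LCK and LYN, which encode Src family kinases, fell by 0.69 and 0.42.

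Of 27 other protein tyrosine phosphatases measured, 13 of them dim, 2 fell and 4 rose with PLS-123 (median -0.03), where 12.8% of all genes were lower and 7.54% higher. With high-dose ibrutinib 1 fell and 3 rose, against 5.82% and 6.71%. Nothing particular to this list is read from these counts. PTPRE rose by 3.22 ± 0.10 with PLS-123 (adjusted p = 2.09e-10) and by 3.45 ± 0.10 with high-dose ibrutinib, and its difference at low-dose ibrutinib was 0.44 ± 0.10 (adjusted p = 0.716). PTPRS differed by -1.71 ± 0.09 with PLS-123 (adjusted p = 1.53e-08) and -1.88 ± 0.09 with high-dose ibrutinib, PTPN3 rose by 1.29 with PLS-123, and PTPRO rose by 0.32. The differences of PTPRE, PTPRS and PTPN3 exceeded those of all 10 leukocyte genes at their brightest probe sets.

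Of 16 other phosphoinositide phosphatases measured, 3 fell and 1 rose with PLS-123 (median 0.06), which is near the 12.8% and 7.54% over all genes. In this list 0 were called with high-dose ibrutinib in limma, against 5.82% and 6.71% of all genes, and 3 had an unadjusted p under 0.05. INPP5B fell by 0.49 (adjusted p = 0.00455) and INPPL1, which encodes SHIP2, the relative of SHIP1, by 0.37 (adjusted p = 0.0193), in the direction opposite to INPP5D. FIG4 fell by 0.33 and INPP5E rose by 0.32. Of the 93 measured genes of the 5 lists, 0 were called by limma with low-dose ibrutinib, where 6 had an unadjusted p under 0.05, and 0 between PLS-123 and high-dose ibrutinib, where 20 did. The lists were chosen with results of these data known.

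**Figure D5:**
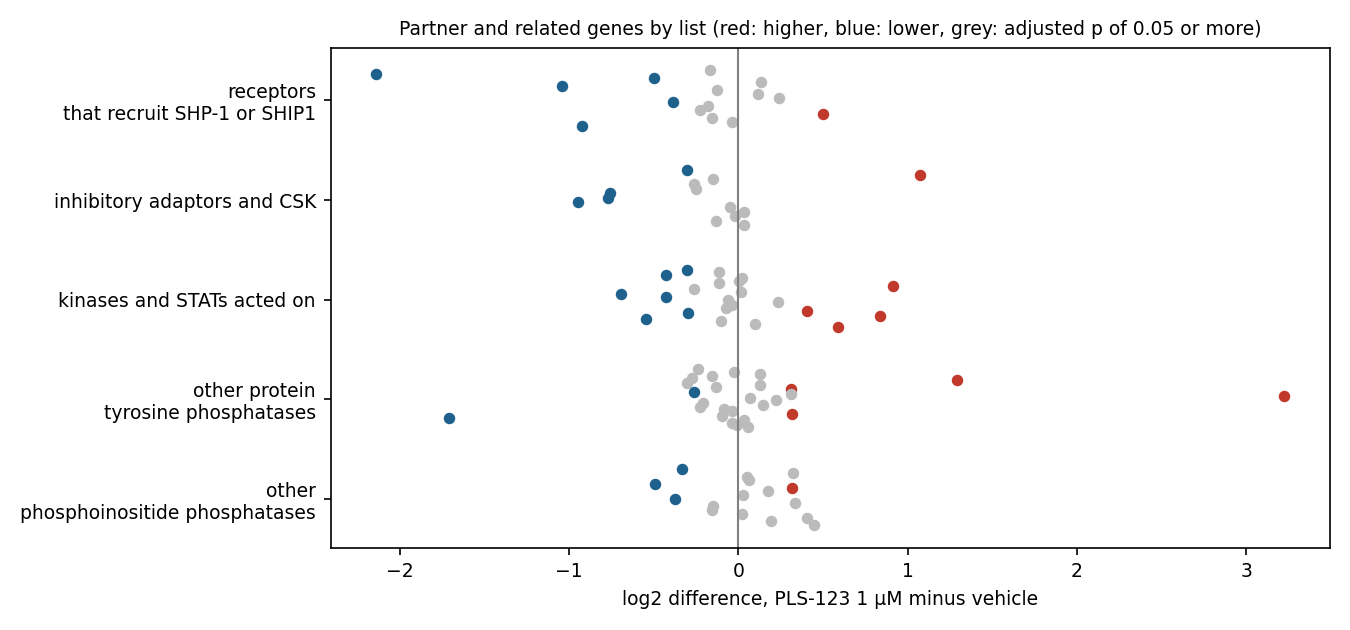
Log2 difference of PLS-123 from vehicle for every measured gene of the 5 lists of partner and related genes, 1 point per gene at its brightest probe set; red points rose and blue points fell at an adjusted p under 0.05, and grey points did not pass. PTPRE at 3.22 and CD22 at -2.14 are the extremes, and the median of each list lies between -0.17 and 0.06.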

How the data were processed

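OCI-Ly7 RNA was hybridized to 12 arrays. The authors normalized the intensities by RMA (version and annotation build are not given in the sources used here) and deposited them on a linear scale; log2 was taken with no pseudocount. From 54675 probe sets 62 controls were removed. Symbols came from GEO's platform annotation. limma 3.58.1 (R 4.3.3), tested on simulated data, took all 12 arrays and estimated each group's mean (8 residual degrees of freedom). P values are two-sided, with Benjamini-Hochberg adjustment. RMA brings the arrays to a like distribution, so a change in total RNA per cell is not measured, and the number of arrays limits the precision.

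The members and lists were chosen with earlier results of these data known. Named were all members with their probe sets, up to 4 called genes of each list with the smallest adjusted p for PLS-123 against vehicle, and the 3 genes closest to each of the 2 members with the widest range of group means. No probe set carried the symbol alone for 11 listed genes. The main fit did not pair samples by replicate letter. Over 18 same-letter pairs the residual correlation ran from -0.209 to 0.152, which does not settle whether samples were paired. Promoters came from RefSeq, GRCh38.p14. The alternatives were the methods' t-test, 2-group fits, an intensity trend, a replicate block, quantile normalization, centring on control probe sets, omission of dim probe sets, another probe set or the mean of all, the ACTB covariate, a 1.5-fold threshold and omission of each array.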

Additional observations from a re-analysis of the deposited data

How the results depend on the processing

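The number of called members, 6 for 10 μM ibrutinib against vehicle, 7 for PLS-123 against vehicle, 4 for PLS-123 against 1 μM ibrutinib and 0 for PLS-123 against 10 μM ibrutinib, moved by over 1.5 times under some settings. With the second brightest probe set it was 1 for 10 μM ibrutinib and 3 for PLS-123 against vehicle, and with the mean over probe sets 2 and 3. PTPN6 and PTPRCAP have 1 probe set each, which was kept in both settings. In the former setting the call for 10 μM ibrutinib was PTPRCAP, and those for PLS-123 were PTPN6, PTPRCAP and INPP5D. Only INPP5D was thus called at a true second probe set (adjusted p = 0.0477 in limma). By the methods' t-test, with its p adjusted over all probe sets, it was 3 for PLS-123 against vehicle and 0 against 1 μM ibrutinib. The ACTB covariate left 2 and 1 in those comparisons. Leaving out dim probe sets or fitting an intensity trend gave 8 against 1 μM ibrutinib and 1 against 10 μM ibrutinib. At a 1.5-fold change with an unadjusted p it was 0 in every comparison. With 1 array left out it ran from 2 to 5 against 1 μM ibrutinib. The share of all genes called under each of these settings was not counted, so nothing particular to the members is read from these changes. Among values called in the main or the alternative fit, the direction turned for 5, all with the second brightest probe set. These were PTPN1 at -0.15 with both 10 μM ibrutinib and PLS-123, and PTPN18 at 0.0136, PTPN22 at 0.81 and PTPRC at 0.49 with PLS-123 against vehicle. Some values uncalled both times also changed sign. An example is PTPN1 for PLS-123 against 10 μM ibrutinib, at -0.03 and, after quantile normalization, 0.06. The cause of these changes was not tested.

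With the replicate letter as a replicate block, 5, 6, 4 and 0 members were called in these comparisons and 0 for 1 μM ibrutinib against vehicle, the lost call being PTPN1 (adjusted p = 0.0526 and 0.0522). Further quantile normalization lost PTPN18 (adjusted p = 0.0742) and gained PTPN2 with PLS-123, as did centring on control probe sets, also on the 100 normalization controls alone, a choice made after seeing the data. Over all probe sets PLS-123 against vehicle gave 5664 lower and 3476 higher as deposited, 4718 and 4274 after quantile normalization, and 4400 and 4044 after centring on controls; against 1 μM ibrutinib these were 4333 and 2502, 3457 and 3051, and 3061 and 3084. Of 1150 values of a member under an alternative, 1056 kept their direction and side of the threshold or were uncalled both times, 27 newly passed, 62 no longer passed and 5 turned direction. The number of arrays, 3 per group, limits the precision, and so does low signal at the dim probe sets.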
